A study of Mus musculus with 18 samples.

Results

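Genes of the glutathione and NRF2 antioxidant system were followed in mouse brown adipocytes in which the lipase activator ABHD5 was knocked down or switched back on. Nfe2l2 encodes the transcription factor NRF2 and Keap1 its inhibitor. Gclc and Gclm encode the catalytic and modifier subunits of glutamate-cysteine ligase, which carries out the first and rate-limiting step of glutathione synthesis. Gsr encodes glutathione reductase and Txnrd1 the cytosolic thioredoxin reductase. Gstm1, Gstm2 and Gsta4 encode glutathione transferases, and Hmox1 encodes haem oxygenase 1. These 10 of the 17672 genes counted were chosen by symbol from a list of pathway names. The list was drawn up with earlier results of these data known, among them a lower Gstm1 level after SR-3420 in cells with Dox. For these 10 genes that comparison is therefore given as values with no test. So is Gstm1 in every other comparison that uses the same libraries. Where others of the 10 genes are tested on those libraries, the tests are not independent of the choice. Other genes of the pathway are also tested on them, that comparison included, and the same holds there.

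NRF2 is held at a low level by KEAP1, which binds it and hands it to a ubiquitin ligase. Electrophiles and oxidants modify cysteines of KEAP1, NRF2 then accumulates, and it binds antioxidant response elements together with small MAF proteins. Glutathione synthesis, glutathione and thioredoxin reduction, conjugation by transferases and haem breakdown are classical outputs of this system, and haem oxygenase 1 is also held down by the repressor BACH1.

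The cells were an immortalised mouse brown preadipocyte line, differentiated to brown adipocytes. Every group, the rescued cells included, carried a stable lentiviral shRNA against Abhd5 and a doxycycline (Dox) inducible Abhd5 that the shRNA does not target, tagged with mCherry. Without Dox the labels call the genotype ABHD5 KD, and with Dox (1 µg/ml) they call it WT, although the ABHD5 of those cells comes from the construct. For 3 h each state received DMSO as the vehicle, 10 nM isoproterenol (ISO), a β-adrenergic agonist, or 20 µM SR-3420, a ligand of ABHD5 that activates lipolysis directly. The 6 groups, namely DMSO, ISO and SR-3420 without Dox and the same treatments with Dox, held 3 replicates each. The immortalising gene of this line, and whether it was a clone or a pool, are not given in the sources used here.

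The 18 libraries held 689910 to 1956565 counts. Abhd5 was read at 41 to 54 counts in DMSO without Dox and at 431 to 1211 counts in DMSO with Dox, with no overlap. Its group means without Dox were 52.6 CPM (counts scaled by library size) in DMSO, 149 CPM in ISO and 75.7 CPM in SR-3420, and with Dox 574, 827 and 695 CPM, so the level in knockdown cells was not the same under each treatment. With ISO it rose by 1.5 ± 0.18 on the log2 scale without Dox (edgeR, adjusted p = 3.34e-07), and the Dox difference was 11.0-fold in DMSO, 5.56-fold in ISO and 9.17-fold in SR-3420. The ISO response differed with Dox by -0.98 ± 0.23 (adjusted p = 0.0194). That call was lost with library totals only and without replicate 1 of DMSO or ISO without Dox or replicate 2 of DMSO with Dox (-0.95 to -0.87, adjusted p = 0.052 to 0.09). The 7 adipocyte markers measured summed to 2766 to 5932 CPM over the libraries, and the 7 brown adipocyte markers to 129 to 1264 CPM, of which Dio2 was at 0 in every library. The 6 macrophage markers summed to 4.5 to 20.2 CPM and the 4 endothelial markers to 5.34 to 25.8 CPM. SR-3420 with Dox replicate 1 stood apart. Its 10 most abundant genes took 35.6% of its counts, against 16.3% to 26.5% in the other 17 libraries, and the log2 changes that rest on it are given with and without it.

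Positions are those of the deposited table on build mm9, counted from 1. Nfe2l2 lies at chr2:75513576-75542698 on the minus strand and Keap1 at chr9:21034174-21043776 on the minus strand. Gclc lies at chr9:77602342-77642296 and Gclm at chr3:121948475-121970133, both on the plus strand. Gsr spans chr8:34763710-34808634 and Txnrd1 spans chr10:82296696-82360469, both on the plus strand. Gstm1 at chr3:107815168-107820891 and Gstm2 at chr3:107784620-107789354 are neighbours on the minus strand, in a cluster of near-identical transferase genes between which reads can be split, so their levels are uncertain. Gsta4 lies at chr9:78039773-78057156 and Hmox1 at chr8:77617517-77624492, both on the plus strand. A long noncoding RNA overlaps Keap1 and another overlaps Gclm on the opposite strand, and whether strand entered the counting is not given in the sources used here. A small RNA gene lies inside Nfe2l2 and another inside Gsr, on the same strand.

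The sequence before each gene was searched for the antioxidant response element, the site that NRF2 binds, to show what such a site looks like at these genes. The outcome depended on the letters and the window, and 8 searches were made. The form TGACNNNGCA, read on both strands from 250 bases before to 50 bases after the annotated start, was in 0 of the 10 genes and in 2.68% of all 17672 windows. From 1000 bases before the start it was in 1 gene, Gsr, and in 9.07% of windows. From 5000 bases before the start it was in 5 genes (Gclc, Gclm, Gsr, Gstm1 and Hmox1) and in 38.2% of windows. In RefSeq promoters of another build (GRCm38.p6, 250 bases before to 50 after the start), which matched 6 of the 10 genes, TGACNNNGCA was at Txnrd1 (3.04% of promoters) and the shorter TGACNNNGC at Nfe2l2, Gclm and Txnrd1 (12.4% of promoters).

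The stricter form TGACTCAGC was chosen after those results had been seen. It was in 0 of the 10 genes from 250 bases before the start (0.39% of windows), in 0 from 1000 bases (1.4%), and in 2 from 5000 bases, Gclc and Hmox1, against 7.37% of all windows. Because the letters and the window were both settled with earlier hits and earlier expression results in view, the pairing of these sites with Gclc and Hmox1 supports nothing about NRF2 at these genes. The sites are printed as examples of the sequence, on the strand of the gene, with the motif in capitals as it reads on that strand (the letters TGACTCAGC are on the opposite strand). No GENCODE gene lies at any of them. A match is not a bound site, and no match says only that these letters are not in the window. The cAMP response element TGACGTCA, its own reverse complement, was in 5.59% of the windows that start 5000 bases before the gene and in 0 of the 10 genes.
Gclc, chr9:77598532-77598580, motif 3790 bases before the start: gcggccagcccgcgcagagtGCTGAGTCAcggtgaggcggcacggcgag
Gclc, chr9:77600305-77600353, motif 2017 bases before the start: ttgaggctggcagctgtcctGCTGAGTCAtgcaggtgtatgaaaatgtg
Hmox1, chr8:77613629-77613677, motif 3868 bases before the start: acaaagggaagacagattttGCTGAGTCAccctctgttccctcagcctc

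The length listed in the table for a gene lay within 10% of its intron length for 72.5% of genes and within 10% of its exon length for 2.27%. Of the 10 genes, 5 lay within 10% of their intron length, and the listed length of Keap1, 2784 bases, was below both its 5133 intron and its 4470 exon bases. The study's methods name counting over whole genes, so the listed length may not be the length over which reads were counted. Whether the reads counted came from exons, introns or both was not tested, so the levels may not be those of mature mRNA. Levels were therefore compared between genes on 2 scales. Per kilobase of listed length Gstm1 was the highest of the 10 in all 6 groups, with group means of 24.2 to 61.3 CPM per kilobase, and it did not overlap the next gene in any group. Per kilobase of exon it was the highest in 4 groups, and Gclc was above it without overlap in both ISO groups, at 134 against 76.9 CPM per kilobase without Dox and 124 against 86.9 with Dox. Gsta4 had the lowest mean in every group on both scales, at 0.14 to 0.387 CPM per kilobase of listed length. Per kilobase of exon its range overlapped that of Keap1 in ISO with Dox (2.61 to 9.05 against 7.54 to 10.9). It also did in SR-3420 with Dox (3.12 to 9.39 against 7.15 to 9.12). Per listed length in DMSO without Dox the genes from Keap1 down to Gclm overlapped their neighbours in the order, so their order there is not resolved.

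**Figure D1:**
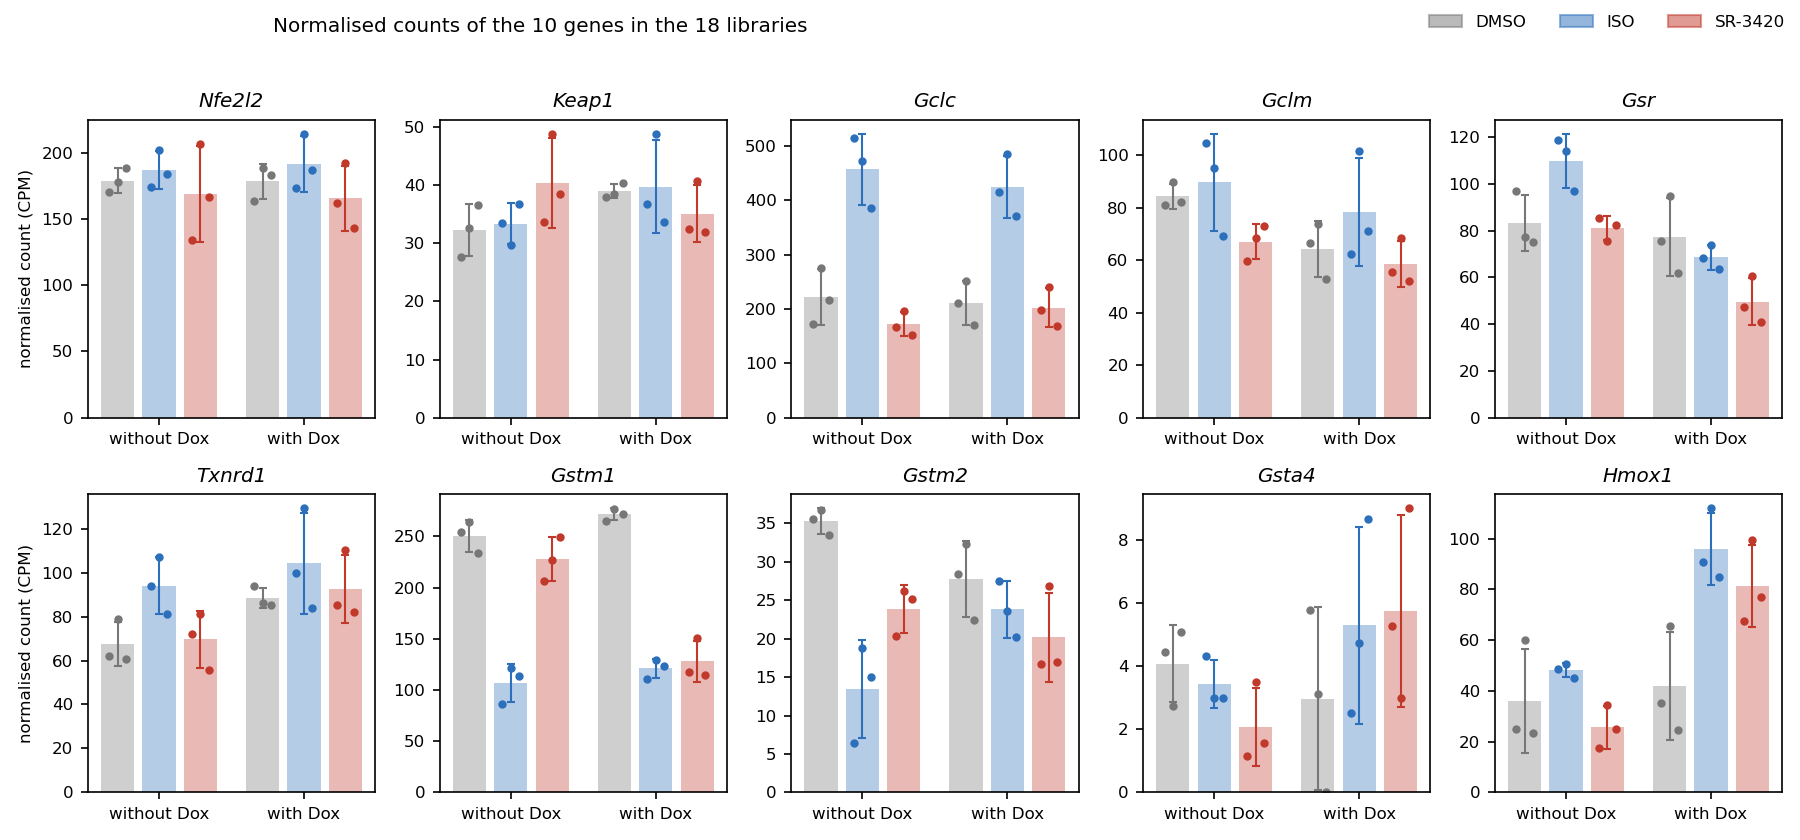
Normalised counts (CPM, y axis) of each of the 10 genes in the 6 groups, without and with Dox (x axis). Points are the 3 libraries of a group, bars their mean and whiskers the SD. Gclc is higher with ISO in both states (458 and 424 CPM), Gstm1 has means of 251 and 271 CPM with DMSO, 107 and 121 CPM with ISO, and 228 and 128 CPM with SR-3420 (without and with Dox), and Hmox1 is highest with ISO with Dox (95.8 CPM).

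Of the 10 genes, 9 had enough counts to be fitted. The exception was Gsta4, which held 0 to 12 counts in a library and was not tested. The comparisons below use a quasi-likelihood test (edgeR) across 10178 genes with Benjamini-Hochberg adjusted p-values, and a gene passed at an adjusted p of 0.05 or less. Fold changes are log2 values ± SE of the fit. As RNA came from whole cultures, fewer cells of a type and less RNA per cell cannot be told apart.

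Among the regulators, Nfe2l2 group means lay between 165 and 191 CPM, so the highest group was 1.16 times the lowest. In DMSO without Dox its libraries read 170, 178 and 189 CPM, and in ISO without Dox 174, 202 and 184 CPM, with overlap. Keap1 group means lay between 32.3 and 40.3 CPM. Its libraries read 27.6, 32.6 and 36.5 CPM in DMSO without Dox and 33.7, 48.8 and 38.4 CPM in SR-3420 without Dox, a difference of 0.33 ± 0.21 with an adjusted p of 0.711. Neither gene passed in any comparison tested. These are RNA levels and carry no measurement of NRF2 or KEAP1 protein, which is where the pathway is known to be controlled.

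ISO without Dox was compared with DMSO without Dox to show how β-adrenergic stimulation acted in knockdown cells. Gclc and Txnrd1 rose and Gstm1 and Gstm2 fell, 2 of 9 higher where 14.5% of all genes were higher and 2 of 9 lower where 13.5% were lower. With DESeq2, 3 of the 9 passed. Gclc read 173, 276 and 217 CPM in DMSO and 514, 472 and 387 CPM in ISO, with no overlap. Its fold change was 1.05 ± 0.17, or 2.07-fold (adjusted p = 3.03e-05). The partner subunit Gclm read 81.0 to 89.8 CPM in DMSO and 69.1 to 105 CPM in ISO, so its groups overlapped, and its change was smaller than its SE.

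Gstm1 read 254, 264 and 233 CPM in DMSO without Dox and 86.5, 122 and 113 CPM in ISO without Dox. Every ISO library lay below every DMSO library, a change of -1.22 ± 0.14 (2.32-fold lower, adjusted p = 2.09e-07). Gstm2 held 40, 27 and 33 counts against 6, 19 and 20 counts, or 35.3 ± 1.65 against 13.4 ± 6.32 CPM (SD, n = 3). Its change was -1.35 ± 0.28 with an adjusted p of 0.000662, from few counts.

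Txnrd1 read 62.3, 78.9 and 60.9 CPM in DMSO without Dox and 94.0, 107 and 81.1 CPM in ISO without Dox, a change of 0.49 ± 0.18 at an adjusted p of 0.0474. That call was lost with DESeq2 (adjusted p = 0.0736), with library totals only (0.31, adjusted p = 0.28), without DMSO without Dox replicate 1 (0.43) or 3 (0.42), and without ISO without Dox replicate 1 (0.49) or 2 (0.39). Gsr read 97.0, 77.5 and 75.1 CPM against 119, 114 and 96.8 CPM. The lowest ISO value lay just under the highest DMSO value, and the change of 0.38 ± 0.16 did not pass (adjusted p = 0.0806). Without DMSO without Dox replicate 1 it was 0.51 and passed (adjusted p = 0.0493), as it did under a replicate block (0.38, adjusted p = 0.0343).

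Hmox1 read 24.9, 59.9 and 23.3 CPM in DMSO without Dox and 48.6, 50.6 and 45.0 CPM in ISO without Dox. The highest DMSO library lay above every ISO library and the other 2 lay below them, so the groups overlapped, and the change of 0.49 ± 0.31 did not pass (adjusted p = 0.256). Without that library, replicate 2, it was 0.99 and passed (adjusted p = 0.0242), as it did under no other alternative. Replicate 2 held the highest Hmox1 value in all 6 groups, and that fit left it out of DMSO without Dox only.

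Marker lists moved in the same comparison. The 7 preadipocyte or fibroblast markers summed to 374 to 455 CPM in DMSO without Dox and 311 to 336 CPM in ISO without Dox. The 7 adipocyte markers summed to 2766 to 3327 CPM and 3764 to 3948 CPM, the 7 brown adipocyte markers to 129 to 206 CPM and 348 to 490 CPM, and the 4 endothelial markers, of which Tek carried most, to 5.34 to 16.2 CPM and 21.0 to 25.8 CPM. Within the lists the genes did not move together. Group means rose from 992 to 1781 CPM for Lpl and from 344 to 504 CPM for Pparg, and also for Pnpla2 and Fabp4. They fell from 518 to 464 CPM for Plin1, 348 to 242 CPM for Cidec and 379 to 365 CPM for Adipoq. Of the preadipocyte or fibroblast list, Ly6a rose from 2.47 to 25.1 CPM, while Pdgfrb fell from 127 to 55.2 CPM and Col1a1 from 259 to 219 CPM. The part of the marker genes in the changes was not tested.

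ISO with Dox was compared with DMSO with Dox, the same stimulation in rescued cells. Gclc and Hmox1 rose, 2 of 8 tested where 16.4% of all genes were higher, and 0 of 8 fell where 16.1% of all genes were lower. DESeq2 also passed 2, and 2 had an unadjusted p under 0.05, Gclc and Hmox1, so none of the tested members was lower by either measure. Gclc read 211, 252 and 171 CPM in DMSO and 416, 485 and 372 CPM in ISO, a change of 1.00 ± 0.17 (2.01-fold, adjusted p = 3.28e-05). The difference from its response without Dox was smaller than its SE. Hmox1 read 35.1, 65.6 and 24.7 CPM in DMSO with Dox and 90.9, 112 and 84.7 CPM in ISO with Dox, with no overlap, a change of 1.23 ± 0.26 (adjusted p = 0.000635). The difference between its ISO responses with and without Dox was 0.74 ± 0.41 and did not pass (adjusted p = 0.428).

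Gstm1, given without a test here, read 265, 277 and 272 CPM in DMSO with Dox and 111, 129 and 123 CPM in ISO with Dox, a change of -1.16 ± 0.14. Gstm2 read 28.4, 32.3 and 22.5 CPM against 27.5, 23.6 and 20.2 CPM, which overlapped, and its change was smaller than its SE. The difference between its ISO responses with and without Dox was 1.13 ± 0.38 and did not pass (adjusted p = 0.122). Txnrd1 changed by 0.23 ± 0.17 (adjusted p = 0.306), Gclm by 0.28 ± 0.18 (adjusted p = 0.25) and Gsr by -0.17 ± 0.17 (adjusted p = 0.47), none past the test.

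The adipocyte markers summed to 3254 to 3733 CPM in DMSO with Dox and 5818 to 5932 CPM in ISO with Dox, and the brown adipocyte markers to 189 to 233 CPM and 622 to 1264 CPM. The preadipocyte or fibroblast markers summed to 437 to 639 CPM and 295 to 402 CPM, and the endothelial markers to 7.29 to 11.6 CPM and 17.3 to 22.1 CPM. Within the preadipocyte or fibroblast list the group means of Ly6a (from 9.51 to 17.6 CPM) and Pdgfra (from 22.9 to 30.6 CPM) rose. The part of the marker genes in the changes was not tested.

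**Figure D2:**
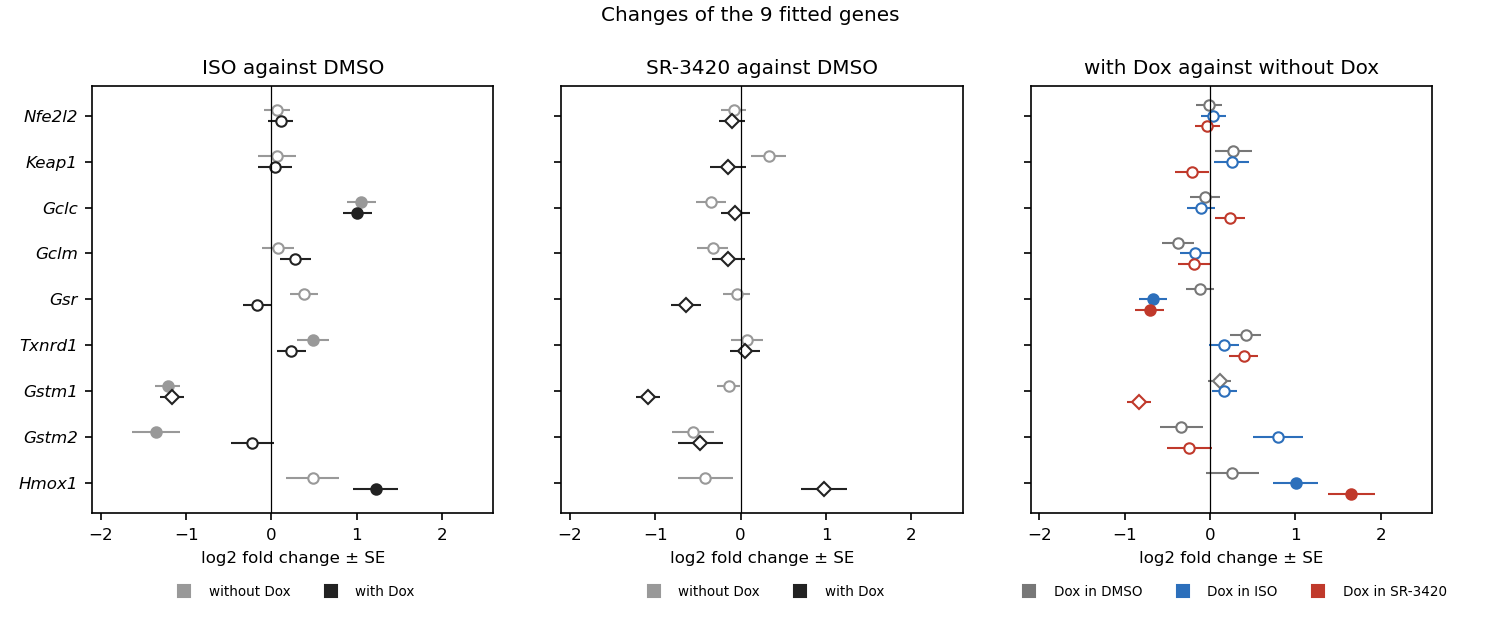
Log2 fold changes (x axis, bars are the SE of the fit) of the 9 fitted genes (y axis) for ISO against DMSO, SR-3420 against DMSO, and cells with Dox against cells without. Filled circles passed the test, open circles did not, and open diamonds are values given without a test. Gclc lies at 1.05 and 1.00 with ISO, and Hmox1 at 1.66 for Dox in SR-3420.

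SR-3420 without Dox was compared with DMSO without Dox. Among the 9 genes, 0 passed, where 0.698% of all genes were higher and 0.0688% lower. With DESeq2, 0 passed as well, and 1 gene, Gstm2, had an unadjusted p under 0.05. Gstm2 read 35.6, 36.7 and 33.5 CPM in DMSO and 20.3, 26.1 and 25.1 CPM in SR-3420. Its ranges did not overlap, but the change of -0.56 ± 0.25 gave an adjusted p of 0.476. Gclm also lay below DMSO in every library, at 59.8 to 73.0 against 81.0 to 89.8 CPM, with a change of -0.33 ± 0.18 (adjusted p = 0.649). Gstm1 read 207, 227 and 249 CPM against 254, 264 and 233 CPM and changed by -0.14 ± 0.13 (95% interval -0.40 to 0.12). Hmox1 changed by -0.41 ± 0.32 (adjusted p = 0.798), and by 0.086 without DMSO without Dox replicate 2, which held its highest control value. Replicate 2 was also its highest SR-3420 library and was kept in that fit. The adipocyte markers summed to 2766 to 3327 CPM in DMSO without Dox and 3995 to 4202 CPM in SR-3420 without Dox, with no overlap. Of these markers Pparg went the other way, its group mean falling from 344 to 248 CPM. The brown adipocyte markers summed to 129 to 206 CPM and 152 to 213 CPM, and the preadipocyte or fibroblast markers to 374 to 455 CPM and 373 to 473 CPM, both with overlap. Their part in the differences was not tested.

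SR-3420 with Dox was compared with DMSO with Dox, the comparison that bore on the choice of these genes, and its values are a description. Of the 9 genes, 1 lay above DMSO in every library and 2 lay below, where 13.6% of all genes lay above and 12.2% below. Gstm1 read 265, 277 and 272 CPM in DMSO and 118, 151 and 115 CPM in SR-3420, a change of -1.08 ± 0.14, or -1.03 without the library that stood apart. Gsr read 75.6, 94.7 and 61.8 CPM against 47.5, 60.6 and 40.9 CPM, a change of -0.64 ± 0.18, or -0.60 without that library. Hmox1 read 35.1, 65.6 and 24.7 CPM against 67.7, 99.4 and 76.9 CPM, a change of 0.98 ± 0.27, or 1.1 without it. The glutathione synthesis genes did not separate. Gclc read 198, 241 and 170 CPM in SR-3420 against 211, 252 and 171 CPM in DMSO, so the catalytic subunit, which rose with ISO, overlapped its control here.

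The adipocyte markers summed to 3254 to 3733 CPM in DMSO with Dox and 4471 to 5781 CPM in SR-3420 with Dox, and the brown adipocyte markers to 189 to 233 CPM and 226 to 408 CPM. Group means of the adipocyte markers Lpl (from 1053 to 992 CPM) and Pparg (from 266 to 254 CPM) fell. That of the brown adipocyte marker Zic1 also fell, from 41.5 to 33.3 CPM. The preadipocyte or fibroblast markers overlapped at 437 to 639 CPM and 410 to 500 CPM, the endothelial markers at 7.29 to 11.6 CPM and 7.99 to 14.1 CPM, and the macrophage markers at 13.5 to 20.2 CPM and 12.3 to 15.9 CPM. Their part in the differences was not tested.

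Both ISO with Dox and SR-3420 with Dox were set against the same 3 DMSO libraries, so their values are given side by side only. Gstm1 stood at 121 ± 9.33 CPM with ISO and 128 ± 20.1 CPM with SR-3420 (SD, n = 3). Hmox1 stood at 95.8 ± 14.2 and 81.3 ± 16.3 CPM. Gclc stood at 424 ± 57.3 and 203 ± 35.7 CPM, and Gsr at 68.6 ± 5.26 and 49.7 ± 10.0 CPM.

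Cells with Dox were then compared with cells without Dox within each treatment, which asks what differed once ABHD5 was switched on. In DMSO, 0 of 8 genes passed, where 1.09% of all genes were higher and 0.0884% lower. DESeq2 also passed 0, and 1 gene, Txnrd1, had an unadjusted p under 0.05. Txnrd1 read 62.3, 78.9 and 60.9 CPM without Dox and 93.9, 86.4 and 85.4 CPM with Dox, a change of 0.42 ± 0.18 (adjusted p = 0.431). Gclm lay lower with Dox in every library (52.8 to 73.9 against 81.0 to 89.8 CPM), a change of -0.37 ± 0.19 with an adjusted p of 0.528.

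In ISO, Hmox1 rose and Gsr fell with Dox, 1 of 9 in each direction where 7.92% of all genes were higher and 4.82% lower. Gsr read 119, 114 and 96.8 CPM without Dox and 68.4, 74.0 and 63.5 CPM with Dox, a change of -0.67 ± 0.16 (adjusted p = 0.00551). Hmox1 read 48.6, 50.6 and 45.0 CPM without Dox and 90.9, 112 and 84.7 CPM with Dox, a change of 1.00 ± 0.26 (adjusted p = 0.00916). The groups did not overlap for either gene. Gstm2 was also higher in every library with Dox, but its change of 0.80 ± 0.29 did not pass (adjusted p = 0.0724). It passed without ISO without Dox replicate 2 (1.09, adjusted p = 0.0333) and under a replicate block (0.79, adjusted p = 0.0443). Gstm1 changed by 0.17 ± 0.15 (adjusted p = 0.514).

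In SR-3420, Hmox1 again rose and Gsr again fell with Dox, 1 of 8 in each direction, where 7.26% of all genes were higher and 4.28% lower. The SR-3420 with Dox libraries bore on the choice of these genes, so the tests here are not independent of that choice. Gsr read 85.3, 75.5 and 82.4 CPM without Dox and 47.5, 60.6 and 40.9 CPM with Dox, a change of -0.71 ± 0.17 (adjusted p = 0.00654). It was -0.66 without the library that stood apart (adjusted p = 0.0376) and just missed the test without SR-3420 with Dox replicate 3 (-0.59, adjusted p = 0.0531). Hmox1 read 17.4, 34.3 and 25.1 CPM without Dox and 67.7, 99.4 and 76.9 CPM with Dox, a change of 1.66 ± 0.28 or 3.16-fold (adjusted p = 0.000126). It was 1.79 without the library that stood apart. Txnrd1 lay higher in every library with Dox, with a change of 0.39 ± 0.17 that did not pass (adjusted p = 0.148) and that did under a replicate block (0.40, adjusted p = 0.0298). It was 0.46 without the library that stood apart (adjusted p = 0.159). Gstm1, without a test, changed by -0.83 ± 0.14, or by -0.77 without that library.

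Adipocyte marker sums were higher in every library with Dox, where Hmox1 was higher and Gsr lower. They stood at 3764 to 3948 CPM in ISO without Dox and 5818 to 5932 CPM in ISO with Dox, and at 3995 to 4202 CPM in SR-3420 without Dox and 4471 to 5781 CPM in SR-3420 with Dox. Lpl went the other way, with group means without and with Dox of 1781 and 1695 CPM in ISO and 1130 and 992 CPM in SR-3420. The brown adipocyte markers summed to 348 to 490 CPM and 622 to 1264 CPM in ISO, and to 152 to 213 CPM and 226 to 408 CPM in SR-3420. Their part in the changes of Hmox1 and Gsr was not tested, and exposure to Dox and expression of ABHD5 cannot be told apart.

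Whether a response differed between cells with and without Dox was tested directly by the interaction. For ISO, 0 of 8 genes passed, where 1.61% of all genes were higher and 0.57% lower. DESeq2 passed 0, and 2 genes, Gstm2 and Gsr, had an unadjusted p under 0.05. For SR-3420, 0 of 8 passed, where 0.54% of all genes were higher and 0.216% lower. These tests also use libraries that bore on the choice of the genes. DESeq2 again passed 0, and Gsr and Hmox1 had an unadjusted p under 0.05. Hmox1 differed by 1.39 ± 0.42 (adjusted p = 0.124). It passed without DMSO with Dox replicate 2 (1.78, adjusted p = 0.0316), which held the highest Hmox1 value of its group, and under a replicate block (1.42, adjusted p = 0.00357). Replicate 2 was the highest for Hmox1 in all 6 groups. Gsr differed by -0.59 ± 0.24 (adjusted p = 0.295) and Gstm1, without a test, by -0.94 ± 0.19. Without the library that stood apart these were 1.52 (adjusted p = 0.122), -0.55 (adjusted p = 0.441) and -0.88.

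A list of 105 other genes of the pathway in 7 roles was also read, 97 of which were in the table and 79 of which were tested. With ISO without Dox 15 of the 79 were higher and 11 lower, where 14.5% of all genes were higher and 13.5% lower. With Dox 15 were higher and 12 lower, where 16.4% and 16.1% of all genes were. The median change over the list was 0.03 without Dox and 0.07 with Dox, against -0.01 and -0.02 over all genes tested. Sod2, the mitochondrial superoxide dismutase, rose by 2.18 ± 0.18 without Dox and 1.90 ± 0.17 with Dox. Its libraries read 109, 49 and 72 counts in DMSO without Dox and 393, 316 and 471 counts in ISO without Dox. Srxn1, which repairs oxidised peroxiredoxins, rose by 2.21 ± 0.27 and 1.79 ± 0.28, and the mitochondrial thioredoxin Txn2 by 1.67 ± 0.22 and 1.51 ± 0.19. The exporter gene Abcc5 rose by 1.05 ± 0.17 without Dox and 0.75 ± 0.17 with Dox.

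The cystine transporter subunit Slc7a11 held 1, 3 and 1 counts in DMSO without Dox and 35, 23 and 13 counts in ISO without Dox, and it passed as higher. With Dox it held 4, 5 and 2 counts in DMSO and 14, 20 and 6 counts in ISO, and also passed (adjusted p = 0.0118), though not without replicate 1 of DMSO or replicate 2 of ISO. Its partner Slc3a2 rose by 0.79 ± 0.15 without Dox and by 1.52 ± 0.15 with Dox. Cth, which makes cysteine, rose by 1.99 ± 0.27 with Dox, and its change of 0.72 ± 0.29 without Dox did not pass (adjusted p = 0.0589), while under a replicate block it did (0.76, adjusted p = 0.0205). The difference between the ISO responses with and without Dox did not pass for Slc7a11 (-1.65 ± 1.00, adjusted p = 0.482), Slc3a2 (0.73 ± 0.21, adjusted p = 0.0678) or Cth (1.27 ± 0.40, adjusted p = 0.0948). Under a replicate block it passed for Slc3a2 (0.73, adjusted p = 0.0113) and Cth (1.28, adjusted p = 0.0263). Without ISO with Dox replicate 2 it also passed for both, at 0.81 and 1.49, as it did with DESeq2 for Slc3a2 and with no filter on low counts for Cth. Of the 13 transferases tested for ISO without Dox, 1 was higher, 5 were lower and 7 did not pass, with a median of -0.23, where 14.5% of all genes were higher and 13.5% lower. For ISO with Dox 2 of the 13 were higher, 2 were lower and 9 did not pass, with a median of -0.39, where 16.4% of all genes were higher and 16.1% lower. Mgst2, a microsomal transferase, fell from 176, 106 and 119 counts to 43, 43 and 37 counts, a change of -1.88 ± 0.18, and by 1.07 on the log2 scale with Dox. Gstt1 changed by -2.07 ± 0.47 and -1.63 ± 0.37, and Gstz1, with the coding gene Pomt2 on the opposite strand, by -1.02 ± 0.23 without Dox. With Dox Gstz1 changed by -0.39 ± 0.22, which did not pass (adjusted p = 0.174) except under a replicate block (-0.42, adjusted p = 0.00509). The difference between its ISO responses was 0.63 ± 0.32 (adjusted p = 0.367), and under a replicate block it passed (0.63, adjusted p = 0.0245). Cbs, the first enzyme from homocysteine to cysteine, changed by -1.91 ± 0.40 without Dox and -1.06 ± 0.34 with Dox, where the call was lost without replicate 2 of DMSO (-0.78) or of ISO (-0.83). Nfe2l3, a relative of NRF2, changed by -2.24 ± 0.47 and -1.77 ± 0.43. Sesn1, a stress-induced sestrin, changed by -1.09 ± 0.25 without Dox and -1.29 ± 0.26 with Dox.

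With SR-3420 without Dox 1 of the 79 passed, Sesn1, with a change of -1.0 ± 0.23 (adjusted p = 0.0332), where 0.698% of all genes were higher and 0.0688% lower. The count was 3 under a replicate block, 2 with DESeq2 and 2 with no filter on low counts. The size of that change was -1.01 with DESeq2, which gave no adjusted p for it. The call was lost without each of 5 of the 6 libraries compared, DMSO without Dox replicate 2 being the exception, at changes of -0.90 to -1.05 (adjusted p = 0.0727 to 0.221). With Dox, 8 were higher and 1 lower, where 6.53% of all genes were higher and 3.37% lower. Without the library that stood apart 7 passed. Slc3a2 held 216, 120 and 87 counts in DMSO with Dox and 461, 310 and 269 counts in SR-3420 with Dox, a change of 1.59 ± 0.15. Sqstm1, which encodes the KEAP1-binding protein p62, changed by 1.13 ± 0.19, the small MAF gene Maff by 0.93 ± 0.18, Cth by 1.41 ± 0.29 and Gsto1 by 0.66 ± 0.13. Without the library that stood apart these were 1.41 for Slc3a2, 1.2 for Sqstm1, 0.91 for Maff, 1.06 for Cth and 0.68 for Gsto1, and all 5 passed. The call for Gsto1 was lost with library totals only (0.48, adjusted p = 0.053). Sesn1 was the gene that was lower (-0.96 ± 0.25) and lost its call without the library that stood apart (-0.78, adjusted p = 0.0988). For Slc3a2 and Sqstm1 the SR-3420 response itself differed between cells with and without Dox, by 1.58 ± 0.22 (adjusted p = 0.000155) and 1.19 ± 0.27 (adjusted p = 0.0259). Without the library that stood apart these were 1.40 and 1.27. The call for Sqstm1 was lost with library totals only and at 0.93 to 1.17 when the library left out was replicate 1 or 3 of DMSO with Dox, replicate 2 of SR-3420 with Dox, replicate 2 of DMSO without Dox, or replicate 1 or 3 of SR-3420 without Dox.

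In DMSO, Dox went with higher Gstm5 (1.65 ± 0.33) and Maff (0.95 ± 0.22), 2 of 79, and with 0 lower, where 1.09% of all genes were higher and 0.0884% lower. Maff lost its call without DMSO without Dox replicate 1 (0.76) or 3 (0.94) or DMSO with Dox replicate 2 (0.80), and with library totals only (0.86, adjusted p = 0.0688), and Gstm5 without DMSO without Dox replicate 3 (1.46). A noncoding RNA lies opposite Gstm5.

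In ISO, 11 of 79 were higher with Dox and 0 lower, where 7.92% of all genes were higher and 4.82% lower. Of the 13 transferases 5 were higher, and their median was 0.68. Mgst2 changed by 1.01 ± 0.19, Mgst3 by 0.84 ± 0.19 and Mgst1 by 0.45 ± 0.13, Slc3a2 by 0.69 ± 0.14 and catalase (Cat) by 0.63 ± 0.13. The count over the list was 6 with library totals only, 21 under a replicate block, 5 without ISO without Dox replicate 1 and 7 without replicate 3. Mgst1 lost its call without ISO without Dox replicate 1 (0.42) or ISO with Dox replicate 2 (0.40), and with library totals only (0.40, adjusted p = 0.114). In SR-3420, 10 were higher and 0 lower, where 7.26% of all genes were higher and 4.28% lower. They were led by Slc3a2 (1.55 ± 0.15), Maff (1.40 ± 0.18), Sqstm1 (1.25 ± 0.18), Gsto1 (0.64 ± 0.13, with the coding gene Wdr96 on the opposite strand) and Cth (0.95 ± 0.26). The count was 5 with library totals only, 6 with DESeq2, 6 without SR-3420 without Dox replicate 1 and 5 without replicate 2 or 3. Without the library that stood apart 5 passed, and Cth did not (0.61, adjusted p = 0.207), nor did it without SR-3420 without Dox replicate 3 (0.88) or with library totals only (0.70, adjusted p = 0.0651). Gsto1 lost its call with library totals only (0.43, adjusted p = 0.0661). Without the library that stood apart the changes were 1.37 for Slc3a2, 1.39 for Maff, 1.33 for Sqstm1 and 0.67 for Gsto1, all past the test.

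**Figure D3:**
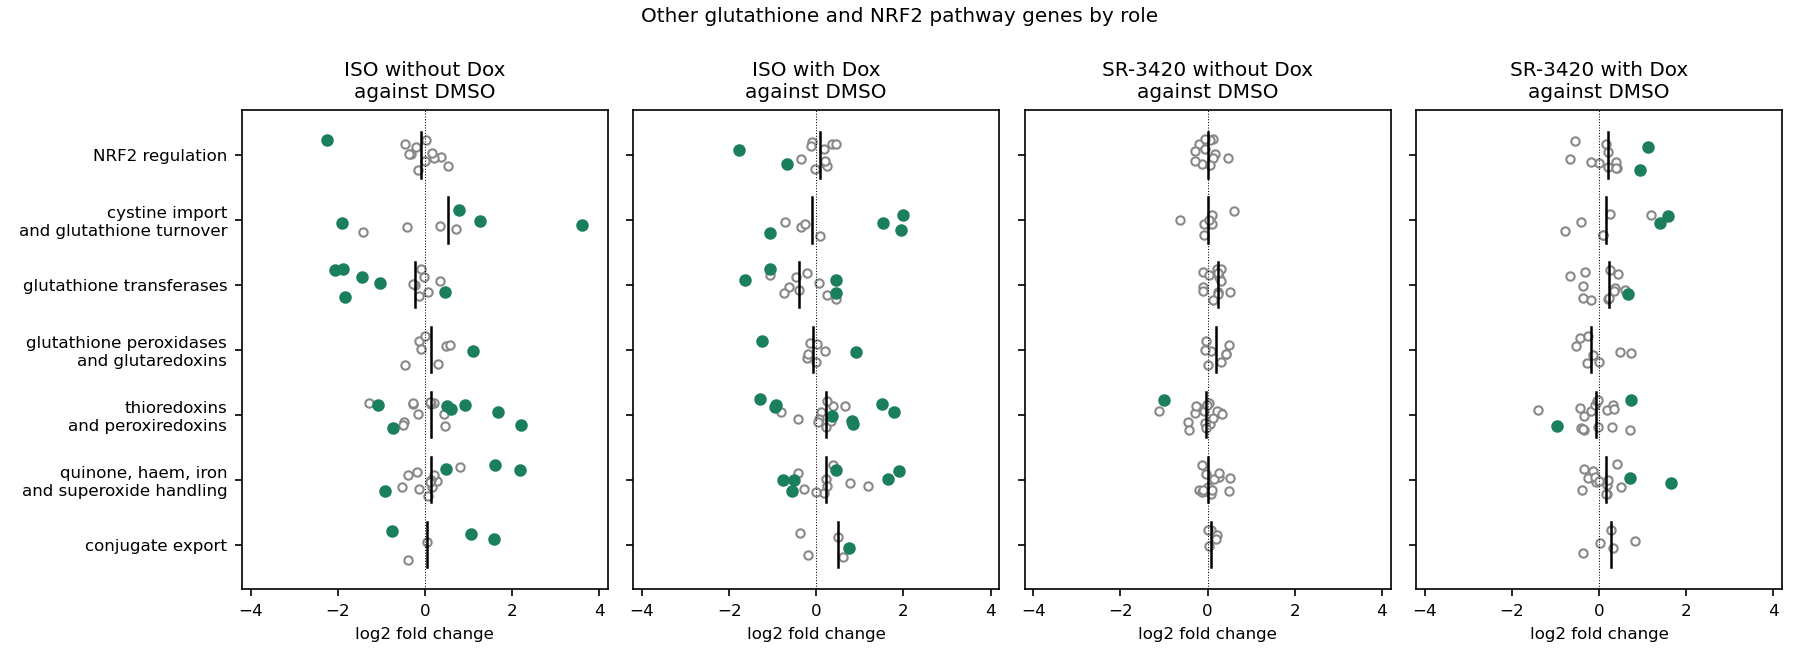
Log2 fold changes against DMSO (x axis) of the 79 tested other genes of the pathway by role (y axis), for ISO and SR-3420 without and with Dox. Each point is a gene, filled where it passed the test, and black bars are medians. With ISO 26 and 27 points are filled, with SR-3420 without Dox 1, and with SR-3420 with Dox 9.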

How the data were processed

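The authors deposited unnormalised whole-number counts, 1 value for each gene in each library. Per the methods and the submitters' processing notes, the authors aligned reads to mm9 with STAR 2.4.2a, removed duplicate positions with HOMER and used iRNA-seq for the counting. The notes also name hg19, which was not used here. Listed lengths were set against GENCODE vM1 on mm9. Replicates were independent experiments per the methods, and no 2 libraries of the same group were identical or within sampling noise. Pairs of libraries from different groups were not checked for this.

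Deviations of libraries with the same number correlated at 0.0386 to 0.277 over 45 pairs. In 4 of the 7 comparisons between 2 groups (ISO with Dox, both SR-3420 comparisons and Dox in ISO) all 3 pairs were over 0.1, and the numbers were read as pairs from the data. No label ties a number to an experiment, and the fits have no block, so the main calls take the libraries as unpaired. Blocked values are given where they change the call of a member or a named pathway gene. For the pathway list the blocked counts are given.

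Groups came from the sample titles, and every column of sample values was used. The filter filterByExpr, run on the 6 groups, kept 10178 of 17672 genes. The counts were scaled by TMM factors and modelled in edgeR 4.0.16 (R 4.3.3) by quasi-likelihood, each group having its own mean and all 18 libraries entering. Tests were two-sided. Adjustment was by Benjamini-Hochberg across the 10178 genes, with a threshold of 0.05. SEs came from the F statistic, and CPM from the TMM-scaled library size. On data simulated for ISO without Dox (9927 genes), 70.4% of 98 genes changed by a log2 size of 1 and 99% of 99 changed by 2 were recovered, with 10 false calls.

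The members and lists were chosen with earlier results of these data known. Genes named were the 10 members, Abhd5, up to 5 pathway genes past the test with the smallest p in each direction of a comparison, and the genes most like each member. A pathway gene that this rule names for ISO with Dox is not reported here. The motif letters and window behind the printed sites were settled after earlier searches had been seen, and all the searches are given. Alternatives were RLE factors, unscaled library totals, keeping all genes with a count, DESeq2 1.42.0, a replicate block, fits on the compared groups alone, a fold limit and leaving out each library. Levels were also set per kilobase of exon, a choice made after the data were seen. For the pathway list and its named genes these were added after the data were seen.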

Additional observations from a re-analysis of the deposited data

Results flagged for a closer look

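For Slc3a2 and Sqstm1 the response to SR-3420 differed between cells with and without Dox by a test of the difference itself (edgeR quasi-likelihood test, Benjamini-Hochberg adjusted). That test uses the libraries of the comparison that bore on the choice of the genes. The difference was 1.58 on the log2 scale for Slc3a2 (adjusted p = 0.000155) and 1.19 for Sqstm1 (adjusted p = 0.0259). Slc3a2 read 106, 110 and 122 CPM with SR-3420 without Dox and 405, 308 and 269 CPM with SR-3420 with Dox. Sqstm1 read 128, 149 and 112 CPM and then 278, 378 and 275 CPM. The call for Slc3a2 was kept under every alternative run, with an adjusted p of at most 0.0023. The call for Sqstm1 was lost in 7 of them, with library totals only (1.08, adjusted p = 0.0851) and without each of 6 libraries of the comparison (0.93 to 1.17, adjusted p = 0.0633 or more).

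For Hmox1 all 3 SR-3420 libraries lay below the DMSO mean without Dox and all 3 above it with Dox. Without Dox the ranges overlapped, the change of -0.41 ± 0.32 did not pass (adjusted p = 0.798), and it was 0.086 without DMSO without Dox replicate 2. The difference of the responses was 1.39 and did not pass the interaction test (adjusted p = 0.124), but it did under a replicate block (1.42, adjusted p = 0.00357), with no filter on low counts (1.35, adjusted p = 0.00321) and without DMSO with Dox replicate 2 (1.78, adjusted p = 0.0316). Replicate 2 held the highest Hmox1 value in all 6 groups.

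For Gsr 3 of 3 ISO libraries lay above the DMSO mean without Dox and 3 of 3 below it with Dox. The ranges overlapped in both states, and neither change passed (0.38 ± 0.16, adjusted p = 0.0806, and -0.17 ± 0.17, adjusted p = 0.47). The difference of -0.55 did not pass either (adjusted p = 0.253).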

How the results depend on the processing

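Of the 81 estimates for the 9 fitted genes, 34 were smaller than their SE, of which 24 changed sign under some alternative and 0 passed under any. Among the other 47, the sign changed only for Hmox1 with SR-3420 without Dox, which was 0.086 without DMSO without Dox replicate 2 and ran from -0.71 to 0.086 over all alternatives. With the fold limit, the genes past the test for Dox fell from 2 to 1 in ISO and from 2 to 1 in SR-3420, where leaving out a library gave 1 to 2. For the SR-3420 interaction 1 gene passed, Hmox1, with no filter on low counts and with the replicate block, and 0 to 1 when a library was left out. No other count of members moved by over 1.5 times.

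Counts over the pathway list moved more. For SR-3420 without Dox (1) they were 2 with no filter, 3 with the replicate block, 2 with DESeq2 and 0 to 2 when a library was left out. For Dox in DMSO (2) they were 1 with library totals only and 0 to 2 when a library was left out. For Dox in ISO (11) they were 6 with library totals only, 21 with the replicate block and 5 to 11 when a library was left out. For Dox in SR-3420 (10) they were 5 with library totals only, 6 with DESeq2 and 5 to 8 when a library was left out. For the ISO interaction (0) they were 1 with no filter, 7 with the replicate block, 3 with DESeq2 and 0 to 2 when a library was left out. For the SR-3420 interaction (2) they were 1 with library totals only and 1 to 2 when a library was left out. The causes were not tested.

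The replicate block changed the call of 4 members, Gsr for ISO without Dox, Gstm2 for Dox in ISO, Txnrd1 for Dox in SR-3420 and Hmox1 for the SR-3420 interaction, each from not passing to passing, and of no other member. All 18 libraries lay closest on average to their own replicate number. Library totals only moved the median of all genes by -0.18 for ISO without Dox, -0.14 for ISO with Dox, -0.19 for SR-3420 with Dox, -0.22 for Dox in SR-3420 and -0.14 for the SR-3420 interaction. Few counts limit Gstm2, Keap1 and Gsta4.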

Other observations

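Among the 10178 genes tested, the ones whose log2 CPM followed each member most closely over the 18 libraries are given as a description. The libraries span 6 groups and differ in depth, and the part of treatment, Dox and depth in the correlations was not tested. Rap1gap2 (r = 0.95), Fis1 (r = 0.945) and Prrg1 (r = 0.928) were most like Gstm1. Eps15 was most like Gclc (r = 0.957) and Arhgap5 most like Hmox1 (r = 0.929). Idi1 (r = 0.899) and Msmo1 (r = 0.894), both enzymes of sterol synthesis, were most like Gsr. Ube2d3 was most like Txnrd1 (r = 0.882), Pdgfd most like Gstm2 (r = 0.856), Malt1 most like Gclm (r = 0.848), Map3k13 most like Nfe2l2 (r = 0.829) and Hsd17b14 most like Keap1 (r = 0.757). Within the 9 genes, Gstm1 and Gstm2 were the most alike (r = 0.743), and Gclc and Gstm1 the most opposed (r = -0.664).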
